A study of Mus musculus with 12 samples.

Results

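Interferons are cytokines that signal cells to prepare for infection. Type I interferons bind the receptor made of Ifnar1 and Ifnar2, and interferon gamma binds the receptor that contains Ifngr1. Both receptors act through JAK kinases and STAT factors, among them Stat2 with its partner Irf9, on genes that carry interferon-stimulated response elements (ISRE) or gamma-activated sites (GAS) near their start. The products include the IFIT and OAS antiviral proteins, the guanylate-binding proteins (GBPs) and immunity-related GTPases that attack vacuoles holding microbes, and parts of the antigen-processing machinery. The 48 genes described here are a hand-made list of these receptors, factors, sensors and targets. They were taken from a count table of 55453 genes and kept where the mean over the 12 libraries was at least 1 CPM (reads of a gene scaled to a common library size), which left 37. Of these, 25 lie on the plus strand of the genome and 12 on the minus strand. The 11 genes under 1 CPM all lie on the minus strand and are Irf7, Dhx58, Isg15, Mx1, Oas2, Oas3, Rsad2, Bst2, Ifi44, Gbp6 and Irgm1.

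In these data 1 of the 37 kept genes, Gbp3, was called higher over both sexes with deletion of the Foxp3 enhancer CNS4. Of all tested genes 3.31% were called there and 2.68% called higher. The CPM of Gbp3 was above that of floxed controls in both sexes. The call was lost in 11 of 22 alternative fits, among them the 7 that each left out 1 of 7 libraries and the one without female knockout libraries 1 and 3. The other 36 kept genes did not pass the test in any comparison of genotypes. Among the 25 plus-strand genes the fitted difference of knockout over floxed was above 0 in both sexes for 5 (the 4 GBPs and Ifi27) and below 0 in both for 6 (the receptors Ifnar1 and Ifnar2, the factors Irf1, Irf9 and Stat2 and the peptide transporter Tap1). It was below 0 in males and above 0 in females for 12, all of them IFIT, OAS or other effectors or immunity-related GTPases, and above 0 in males and below 0 in females for Ifngr1 and Psmb8. Over all tested genes the shares with these 4 patterns were 34.0, 33.6, 14.7 and 17.7%. Of those 12 genes, Ifi35, Igtp and Ifi47 had male values of -0.02, -0.01 and -0.02. Their male signs turned in 6, 5 and 3 of 23 alternative fits, that of Xaf1 in 1 and those of the rest in 0. Without female knockout libraries 1 and 3, which leaves library 2 as the only female knockout, 17 of the 25 female signs turned. The 8 that did not were Gbp3, Ifi27, Ifit2, Oasl1, Irf1, Irf9, Stat2 and Tap1.

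The RNA came from regulatory T (Treg) cells, T cells that hold back immune reactions and depend on the factor Foxp3. A flow cytometry sort took cells with CD4 and Foxp3 from C57BL/6 mice, which the series text calls matched for age and sex with no age given, and no treatment followed the sort. The 4 groups of 3 libraries were males with genotype CNS4 floxed (wild type), males with genotype CNS4 knockout, females labelled CNS4 floxed heterozygotes and females labelled CNS4 knockout heterozygotes. Foxp3 and its enhancer lie on the X chromosome, so a male has 1 copy, and in a heterozygous female the active copy can differ from cell to cell. The labels do not say which allele the sorted female cells used, how the deletion was driven, which organ was taken (each title contains Thy), or whether each library was a separate animal. The p-values therefore measure the spread between these libraries, which may be technical.

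The promoter of Gbp3 is shown because Gbp3 alone passed the test. Those of the 3 other plus-strand GBP genes, which lie near it on chromosome 3, and of Irf1, the kept gene with the next smallest p, were added after their values were seen. The sequences are the 250 bases before a RefSeq transcript start on GRCm38.p6, a later build than the mm9 of the count table. Gbp3 and Irf1 have 2 such windows each, of which 1 is shown. Capitals mark matches to an ISRE (GAAA, any 2 bases, GAAA, which on the other strand reads TTTC, any 2 bases, TTTC) or a GAS (TTC, any 3 bases, GAA, which reads the same on the other strand).
Gbp5, chr3:142496684-142496933, plus strand: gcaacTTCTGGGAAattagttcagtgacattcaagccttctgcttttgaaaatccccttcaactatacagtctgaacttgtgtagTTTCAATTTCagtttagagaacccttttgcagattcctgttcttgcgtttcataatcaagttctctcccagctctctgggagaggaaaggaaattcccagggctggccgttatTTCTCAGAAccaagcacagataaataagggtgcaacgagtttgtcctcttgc
Gbp7, chr3:142530086-142530335, plus strand: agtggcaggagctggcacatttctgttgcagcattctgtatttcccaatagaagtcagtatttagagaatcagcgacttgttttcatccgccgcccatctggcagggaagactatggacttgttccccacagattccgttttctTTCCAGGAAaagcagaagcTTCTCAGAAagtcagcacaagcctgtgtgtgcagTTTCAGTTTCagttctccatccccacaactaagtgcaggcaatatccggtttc
Gbp3, chr3:142559794-142560043, plus strand: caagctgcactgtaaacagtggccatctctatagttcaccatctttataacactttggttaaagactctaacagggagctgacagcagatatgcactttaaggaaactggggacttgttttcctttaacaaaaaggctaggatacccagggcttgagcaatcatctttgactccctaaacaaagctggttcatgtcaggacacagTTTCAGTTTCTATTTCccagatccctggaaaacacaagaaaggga
Gbp2, chr3:142620413-142620662, plus strand: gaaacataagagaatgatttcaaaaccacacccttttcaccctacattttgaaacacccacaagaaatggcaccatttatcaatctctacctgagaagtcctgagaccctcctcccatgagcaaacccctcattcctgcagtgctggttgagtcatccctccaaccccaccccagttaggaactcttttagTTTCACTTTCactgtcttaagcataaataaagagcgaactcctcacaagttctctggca
Irf1, chr11:53769764-53770013, plus strand: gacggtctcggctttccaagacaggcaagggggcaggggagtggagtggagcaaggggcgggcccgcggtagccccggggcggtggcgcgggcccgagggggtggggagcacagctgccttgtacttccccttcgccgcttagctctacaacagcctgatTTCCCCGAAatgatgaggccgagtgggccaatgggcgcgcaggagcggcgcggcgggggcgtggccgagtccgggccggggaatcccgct

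Gbp3 held 2 ISRE words that overlap each other, from position -45 to -30 counted from the start, and no GAS word in this window. Gbp7 held 1 ISRE word at -53 and 2 GAS words, Gbp5 held 1 ISRE and 2 GAS words, Gbp2 held 1 ISRE word at -59, and Irf1 held 1 GAS word at -90. Over all 32851 RefSeq windows of the same length, 2.98% held an ISRE word and 7.02% a GAS word. These shares count windows, while the counts that follow are of genes, some with more than 1 window. RefSeq windows were found for 21 of the 25 plus-strand genes. An ISRE word was found for 8 of the 21 (Gbp2, Gbp3, Gbp5, Gbp7, Ifit1, Ifit3, Igtp and Stat2), and a GAS word for 7 of them (Gbp5, Gbp7, Ifit2, Ifnar2, Igtp, Irf1 and Psmb8). These matches describe letters and not binding.

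Gene counts per library ran from 12423335 to 30244505. Plus-strand genes held 95.8 to 97.2% of the reads of protein-coding genes, so minus-strand genes are poorly counted and are given apart. This includes markers of the sorted cells: minus-strand Cd4 was at 4.76 to 12 CPM, while plus-strand Foxp3, the gene next to the deleted enhancer, was at 685 to 2675 CPM and Cd3d at 776 to 1218. Foxp3 was lower without overlap in the knockout libraries of each sex, at 1462 to 2037 CPM against 2227 to 2675 in males and 685 to 1824 against 2582 to 2658 in females. The log2 fold change over both sexes was -0.86 (SE 0.22) with an adjusted p of 0.06 by edgeR. Female knockout libraries 1 and 3 stood apart from the other 10 on the first principal component of all tested genes. They also had the lowest Foxp3 of the 12 libraries, at 685 and 825 CPM, against 1824 CPM in female knockout library 2. Why they stood apart was not tested. Fits without these 2 libraries, which thus leave out those with the least Foxp3, are given beside the results they move. They leave library 2 as the only female knockout library, so a call lost in them may reflect the smaller group.

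The interferon receptor genes held the most abundant kept gene and the widest spread between libraries. CPM divided by exonic length in kilobases was highest for Ifngr1 among all kept genes, at a mean of 438 CPM per kb, against 116 for Ifnar1 and 44.1 for Ifnar2. In males Ifngr1 was at 1119, 1094 and 1060 CPM in floxed libraries 1, 2 and 4, and at 1510, 1339 and 1386 CPM in knockout libraries 1, 2 and 3. In females it was at 1245, 1316 and 1277 CPM in floxed libraries 1, 2 and 3 and at 1032, 1560 and 1042 CPM in the knockout libraries. The male groups did not overlap, with the knockouts higher, as in 8.2% of all tested genes. In females knockout library 2 was the highest of all 12 and knockout libraries 1 and 3 the lowest. The log2 fold change, knockout over floxed here and throughout, was 0.37 (SE 0.15) in males with an adjusted p of 0.495 by edgeR. The female value was -0.08 (SE 0.15), adjusted p 0.773, and 0.29 without knockout libraries 1 and 3.

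Ifnar1 and Ifnar2, the pair of chains that bind type I interferons, did not pass the test in either sex. Ifnar1 was at 295 and 358 CPM in female knockout libraries 1 and 3 and between 635 and 830 CPM in the other 10. Ifnar2 was at 22.6 and 29.4 CPM in those 2 and between 67.3 and 285 CPM in the others. Floxed females also lay below floxed males for Ifnar2 without overlap, at 67.3 to 132 against 207 to 261 CPM, with a log2 difference of -1.10 (SE 0.59) and an adjusted p of 0.665 by edgeR. That order held in 14.3% of all tested genes. Without female knockout libraries 1 and 3 the female differences of Ifnar1 and Ifnar2 between genotypes were 0.05 and 0.16.

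The plus-strand transducers Irf1, Irf9 and Stat2 all had fitted differences below 0 in both sexes, except that Irf9 in females was above 0 in 3 alternatives, and none passed the test. Irf1 is a transcription factor that is induced by interferon gamma and acts on GBP and antigen-processing genes. In males it was at 711, 753 and 698 CPM in floxed libraries 1, 2 and 4 and at 613, 570 and 684 CPM in knockout libraries 1, 2 and 3. In females it was at 839, 776 and 744 CPM in the floxed libraries and at 318, 650 and 374 CPM in the knockout libraries. All 3 knockout libraries lay below all 3 floxed libraries in each sex, which was so for 1.78% of all tested genes. The log2 fold change was -0.51 (SE 0.15) over both sexes with an adjusted p of 0.0993 by edgeR, -0.21 (SE 0.22) in males and -0.81 (SE 0.22) in females. Without female knockout libraries 1 and 3 the female value was -0.27, beside -0.22 in males. DESeq2 called Irf1 over both sexes, with an adjusted p of 0.0407. Without those 2 libraries the difference over both sexes was -0.24. The annotation gives Irf1 135 exonic bases in common with a gene of the other strand, so its count is uncertain.

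Stat2 and Irf9 act together in the transcription complex that type I interferons activate. Stat2 was at 421, 420 and 448 CPM in male floxed libraries 1, 2 and 4 and at 409, 358 and 424 CPM in male knockout libraries 1, 2 and 3. Its female values were 385, 478 and 481 CPM in the floxed libraries and 145, 423 and 160 CPM in the knockout libraries. The groups overlapped in both sexes, since only knockout libraries 1 and 3 of the females lay outside the range of the rest. The female log2 fold change of -0.89 (SE 0.34, adjusted p 0.217 by edgeR) was -0.08 without those 2 libraries.

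Irf9 was steadier. It was at 769, 844 and 709 CPM in male floxed libraries 1, 2 and 4, at 695, 646 and 710 CPM in male knockout libraries 1, 2 and 3, at 886, 839 and 803 CPM in the female floxed libraries and at 943, 720 and 816 CPM in the female knockout libraries. The groups overlapped in both sexes, and the log2 fold change over both was -0.10 (SE 0.08, adjusted p 0.479 by edgeR).

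**Figure D1:**
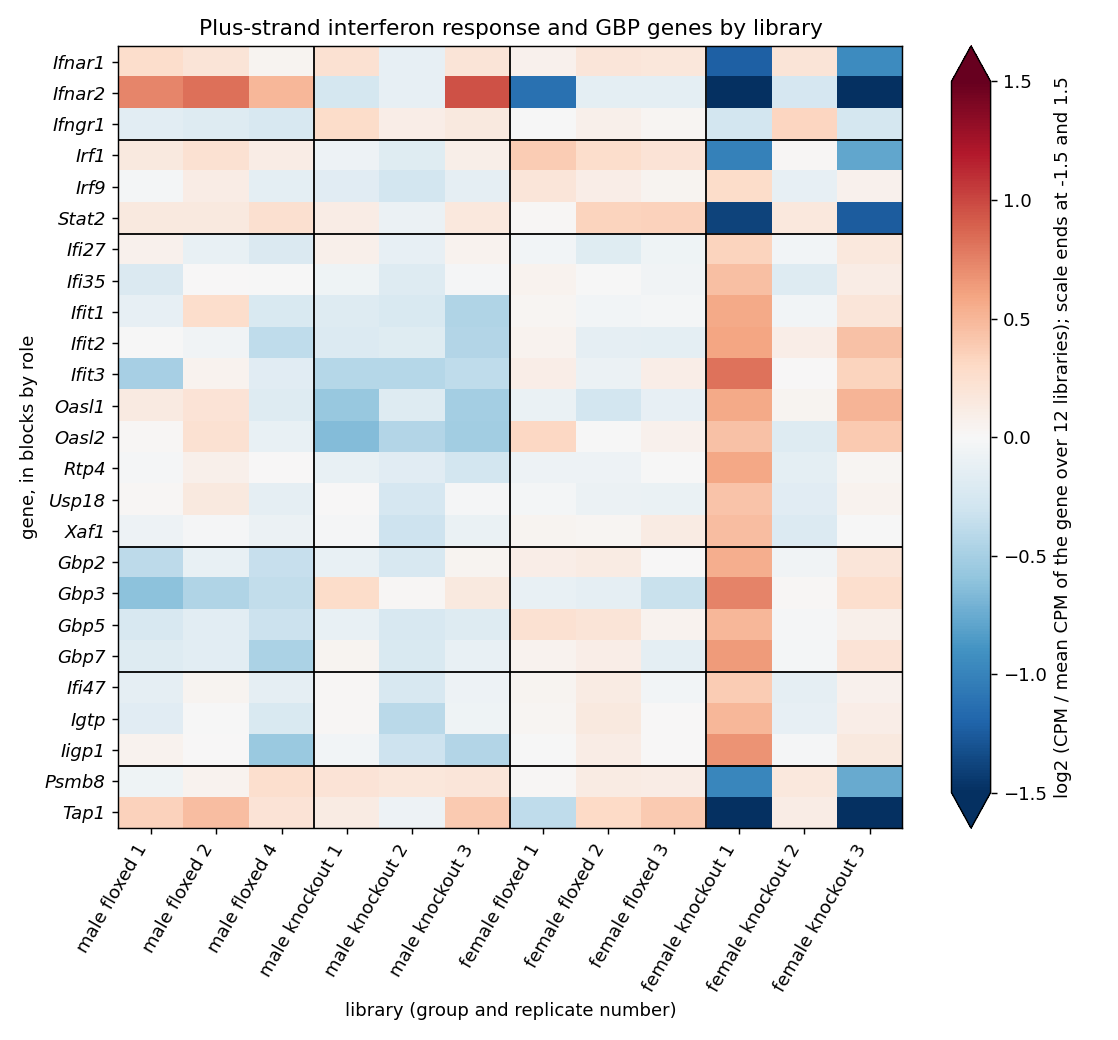
Each row is 1 of the 25 plus-strand genes and each column 1 library. Colour gives the log2 ratio of CPM to the gene's mean over the 12 libraries, blue below and red above, and lines part the roles and the groups. Female knockout libraries 1 and 3 are dark blue for Ifnar1, Ifnar2, Irf1, Stat2, Psmb8 and Tap1. Library 1 is red for most effectors and GTPases. Library 3 is red mainly for Ifit2, Ifit3, Oasl1 and Oasl2 and paler for the others, and female knockout library 2 is pale for most genes.

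The 10 plus-strand antiviral effectors gave 0 calls in either sex by edgeR, where 0.0242% of all tested genes were called in males and 0.201% in females. At an unadjusted p under 0.05 there were 2 in males, both lower, and 2 in females, both higher, beside 8.12 and 19.2% of all tested genes. DESeq2 called 0 in both sexes, where it called 1.89% of all tested genes in males and 5.69% in females. Limma-voom with quality weights called 0 in males and 3 in females, beside 1.43 and 43.8% of all tested genes. The fitted difference was below 0 for 9 of the 10 in males, with a median of -0.17, and above 0 for all 10 in females, with a median of 0.25, though 7 of the 10 turned below 0 in females without knockout libraries 1 and 3. The medians over all 12411 tested genes were 0.01 in males and -0.02 in females. Oasl1 and Oasl2 are OAS-like proteins, and the IFIT proteins bind foreign RNA.

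Oasl2 had the largest difference below 0 in males. It was at 108, 125 and 99.1 CPM in male floxed libraries 1, 2 and 4 and at 68.1, 78.7 and 74.8 CPM in male knockout libraries 1, 2 and 3, lower without overlap, as in 6.13% of all tested genes. The female values were 133, 107 and 112 CPM in the floxed libraries and 145, 93.4 and 140 CPM in the knockout libraries, which overlapped. The male log2 fold change was -0.59 (SE 0.18) with an adjusted p of 0.314 by edgeR, and the female one 0.11 (SE 0.18) with 0.742, which turned to -0.32 without female knockout libraries 1 and 3.

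All 10 effectors had a larger fitted difference in females than in males, but without female knockout libraries 1 and 3 only 7 did, Usp18 by less than 0.01, and Ifi27, Ifi35 and Xaf1 had a smaller one. Oasl1, Ifit2 and Ifit1 are given beside Oasl2 and were singled out after their values were seen. The female minus male difference of the log2 fold change was 1.03 (SE 0.26) for Oasl1, 0.69 (SE 0.25) for Oasl2, 0.59 (SE 0.22) for Ifit2 and 0.53 (SE 0.24) for Ifit1. Without those 2 libraries the 4 values were 0.68, 0.26, 0.31 and 0.24, and the median over the 25 plus-strand genes went from 0.13 to -0.01. These 4 were the plus-strand genes with an unadjusted p under 0.05 for that difference, which 2.73% of all tested genes reached. Each of the 4 had an adjusted p of 0.892 by edgeR. For this difference edgeR called 0 of the kept genes and DESeq2 0 (0.0% of all tested genes by either), while limma-voom with quality weights called 9 of the 37 kept genes and 8.38% of all tested genes.

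Oasl1 was at 53.8 to 70.8 CPM in male floxed and 41.4 to 53.8 CPM in male knockout libraries. Its female range was 50.9 to 57.4 CPM in floxed and 63.2 to 91.3 CPM in knockout libraries, higher without overlap, as in 15.3% of all tested genes. Ifit2 was also higher without overlap in female knockout libraries, at 219 to 306 against 184 to 211 CPM. Without female knockout libraries 1 and 3 the female log2 fold change was 0.21 for Oasl1 and 0.18 for Ifit2, against 0.56 and 0.46 with them. In both genes female knockout library 2 was the lowest of its group, as it was for all 10 effectors.

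Ifi27, the effector with the highest level per length at a mean of 267 CPM per kb, was at 411, 361 and 337 CPM in male floxed libraries 1, 2 and 4 and at 413, 360 and 406 CPM in male knockout libraries 1, 2 and 3. It was at 381, 346 and 373 CPM in female floxed and 492, 382 and 436 CPM in female knockout libraries. The male groups overlapped, and the female groups did not, though female knockout library 2 at 382 CPM lay next to female floxed library 1 at 381 CPM. Over both sexes the log2 fold change was 0.17 (SE 0.09, adjusted p 0.288 by edgeR), and 0.07 without female knockout libraries 1 and 3. Ifit1, Ifit3, Ifi35, Rtp4, Usp18 and Xaf1 had log2 fold changes of -0.02 to 0.08 over both sexes. Of Ifit3's 50-base words, 51.2% also occur in other genes, so its count is uncertain. The annotation also gives exonic bases in common with the other strand for Ifi35 (290), Usp18 (124) and Oasl1 (38).

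**Figure D2:**
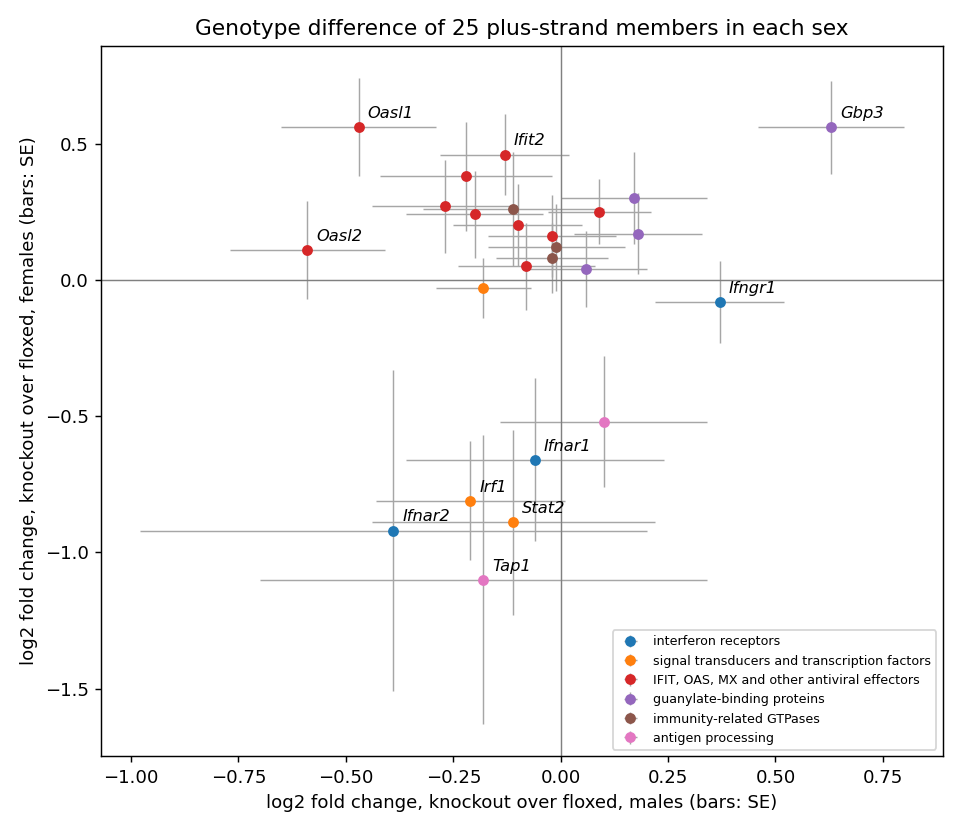
Each point is 1 of the 25 plus-strand genes, with the log2 fold change in males across and in females up, bars giving the SE and colour the role. Gbp3 lies farthest to the upper right, the effectors lie mainly at the upper left, and Irf1, Stat2, Ifnar1, Ifnar2 and Tap1 lie at the lower left.

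The guanylate-binding proteins included the called gene. Gbp5, Gbp7, Gbp3 and Gbp2 lie in this order on the plus strand of chromosome 3. Gbp3 was at 175, 196 and 207 CPM in male floxed libraries 1, 2 and 4 and at 323, 272 and 297 CPM in male knockout libraries 1, 2 and 3. It was at 248, 244 and 212 CPM in female floxed libraries and at 450, 270 and 319 CPM in female knockout libraries. Every knockout library lay above every floxed library, also across the sexes, and within both sexes this separation was seen in 3.97% of all tested genes. The means were 193 ± 16.1 (SD, n = 3) and 298 ± 25.5 (SD, n = 3) CPM in floxed and knockout males, and 235 ± 19.7 (SD, n = 3) and 346 ± 92.8 (SD, n = 3) CPM in floxed and knockout females.

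Gbp3 rose 1.51-fold over both sexes, a log2 fold change of 0.59 (SE 0.12) with an adjusted p of 0.0274 by edgeR. It was the only call among the 37 kept genes, against 3.31% of all tested genes called in that comparison and 2.68% called higher. At an unadjusted p under 0.05 there were 3 of the 37 kept genes, Gbp3, Irf1 and minus-strand Oas1a, against 20.2% of all tested genes. The male log2 fold change of Gbp3 was 0.63 (SE 0.17) with an adjusted p of 0.26 by edgeR, and the female value 0.56 (SE 0.17) with 0.154. The difference between them was -0.07 (SE 0.24). Without female knockout libraries 1 and 3 the female value was 0.21, beside 0.62 in males, a difference of -0.42 with an adjusted p of 1.0 by edgeR. In bulk RNA more cells of a type and more RNA per cell cannot be told apart.

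The call stood close to the threshold. Over 22 alternative fits the log2 fold change ran from 0.41 to 0.67 and the adjusted p from 0.000931 (DESeq2) to 0.122, and 11 of the 22 were over 0.05. Leaving out male floxed library 1 or 2, male knockout library 1, female floxed library 1, 2 or 3, or female knockout library 3 ended the call, with adjusted p-values of 0.0656 to 0.106. Leaving out female knockout libraries 1 and 3 together, which leaves 1 female knockout library, gave 0.41.

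The 3 other plus-strand GBPs had smaller differences above 0, which in females turned below 0 without knockout libraries 1 and 3 (-0.03 for Gbp7, -0.13 for Gbp2 and -0.17 for Gbp5), and did not pass the test. Gbp7 was at 551, 563 and 452 CPM in male floxed libraries 1, 2 and 4 and at 647, 534 and 582 CPM in male knockout libraries 1, 2 and 3. It was at 649, 671 and 566 CPM in female floxed and 979, 615 and 723 CPM in female knockout libraries. The genotypes overlapped in both sexes, and female knockout library 1 was the highest of the 12. The log2 fold change over both sexes was 0.23 (SE 0.12, adjusted p 0.292 by edgeR), beside 0.18 (SE 0.11) for Gbp2 and 0.05 (SE 0.10) for Gbp5. In Gbp7, 12.7% of the 50-base words also occur in other genes.

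All 4 plus-strand GBPs were higher without overlap in floxed females than in floxed males, a separation seen in 10.7% of all tested genes. It was seen in 10 of the 37 kept genes, also in Ifngr1, Xaf1 and Igtp and in minus-strand Ifih1, Ddx58 and Samhd1. Of the 37, 1 was lower without overlap (Ifnar2). The values of the 4 GBPs follow. Gbp5 was at 211 to 238 against 162 to 182 CPM, a log2 difference of 0.40 (SE 0.14), and Gbp2 at 227 to 247 against 173 to 210 CPM, a difference of 0.36 (SE 0.16). Gbp7 differed by 0.27 (SE 0.17) and Gbp3 by 0.29 (SE 0.17). None passed the test, with adjusted p-values of 0.665 to 0.672 by edgeR, and edgeR called 0 kept genes of either strand between floxed females and males, DESeq2 0 (0.475% of all tested genes) and limma-voom 0 (0.0725%). At an unadjusted p under 0.05 there were 2 (Gbp2 and Gbp5). Of all tested genes 0.0322% were called by edgeR and 6.14% had such a p. Sex and the genotype label cannot be told apart here, since the females are labelled heterozygotes.

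**Figure D3:**
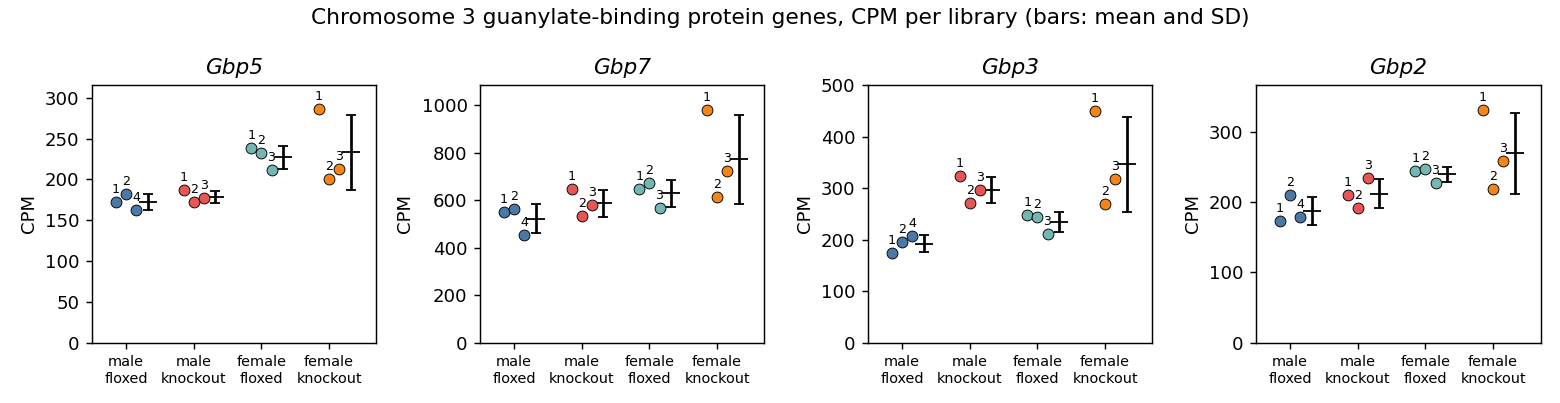
CPM of Gbp5, Gbp7, Gbp3 and Gbp2, in their order on the chromosome, in each library by group, with the replicate number beside each point and bars for mean and SD. For Gbp3 the knockout libraries sit between 270 and 450 CPM and the floxed libraries between 175 and 248 CPM. For the other 3 genes the genotypes overlap.

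The immunity-related GTPases Igtp, Iigp1 and Ifi47 had small differences between genotypes. Ifi47 was at 785, 891 and 785 CPM in male floxed libraries 1, 2 and 4, at 873, 728 and 819 CPM in male knockout libraries 1, 2 and 3, at 888, 936 and 840 CPM in the female floxed libraries and at 1119, 786 and 902 CPM in the female knockout libraries. The groups overlapped in both sexes. The log2 fold change over both sexes was 0.03 (SE 0.09) for Ifi47, 0.06 (SE 0.11) for Igtp and 0.08 (SE 0.15) for Iigp1, with adjusted p-values of 0.784 to 0.892 by edgeR. In females the 3 values were 0.08, 0.12 and 0.26, and -0.17, -0.18 and -0.05 without knockout libraries 1 and 3. Ifi47 has 106 exonic bases in common with the other strand, and 11.8% of the 50-base words of Igtp occur in other genes.

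Psmb8, a subunit of the immunoproteasome, and Tap1, which carries peptides into the endoplasmic reticulum for MHC class I, stand for antigen processing. Tap1 was at 1484, 1608 and 1352 CPM in male floxed libraries 1, 2 and 4 and at 1272, 1110 and 1535 CPM in male knockout libraries 1, 2 and 3. In females it was at 899, 1441 and 1535 CPM in the floxed libraries and at 230, 1261 and 311 CPM in the knockout libraries. Female knockout libraries 1 and 3 were the lowest of the 12 and library 2 lay within the floxed range. The female log2 fold change was -1.10 (SE 0.53, adjusted p 0.277 by edgeR), and -0.03 without libraries 1 and 3. Psmb8 followed the same libraries, at 512 and 598 CPM against 966 to 1204 CPM in the other 10. The annotation gives both genes exonic bases in common with the other strand, 212 for Tap1 and 498 for Psmb8.

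**Figure D4:**
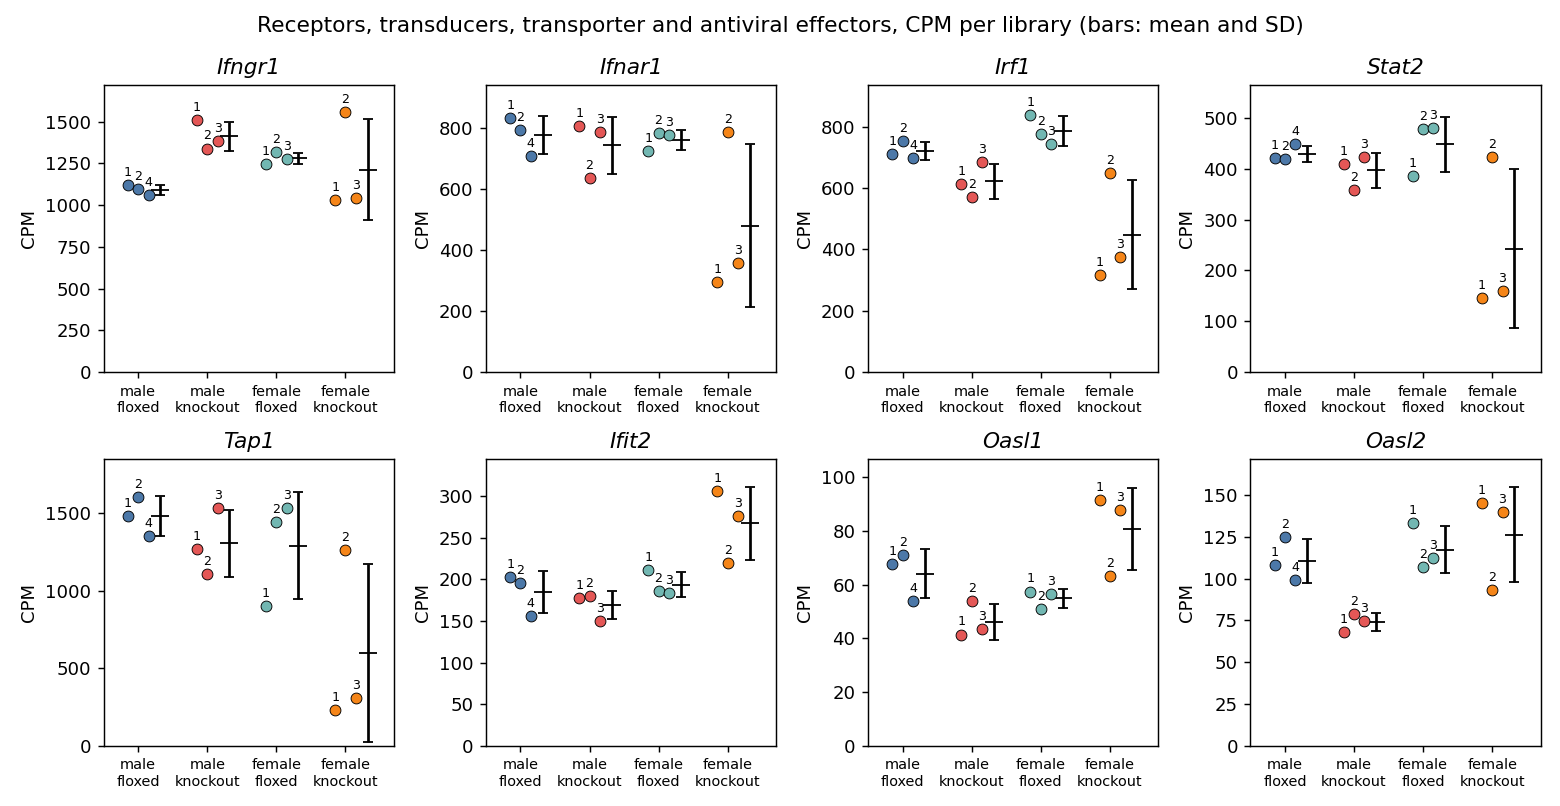
CPM of 8 receptor, transducer, transporter and effector genes in each library by group, with replicate numbers and bars for mean and SD. For Ifnar1, Irf1, Stat2 and Tap1 female knockout libraries 1 and 3 lie far below library 2, for Ifit2, Oasl1 and Oasl2 they lie above it, and for Ifngr1 the male knockouts lie above the male floxed libraries.

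Female knockout libraries 1 and 3 lay outside the range of the other 10 for many of the genes, and library 1 lay further out. Library 1 was the highest of the 12 for 18 of the 25 plus-strand genes and the lowest for 7, and library 3 for 0 and 0. Without library 1 alone the female signs of Ifngr1, Oasl2, Ifi35, Rtp4, Xaf1, Gbp2, Gbp5, Igtp and Ifi47 turned. Without library 3 alone only that of Ifngr1 did. Both lay above the range of the other 10 libraries for 9 of the 25 plus-strand genes (Ifit2, Ifit3, Oasl1, Oasl2, Ifi27, Ifi35, Gbp2, Gbp7 and Iigp1) and below it for 7 (Ifnar1, Ifnar2, Ifngr1, Irf1, Stat2, Psmb8 and Tap1). Over all plus-strand tested genes 15% lay above and 26.3% below. The median GC content of transcripts was 47.8% for the 9 genes above, 52.6% for the 7 below and 47.4% for the other 9. Over the 25 genes, whose points share library and depth, Spearman's rho between GC content and the log2 ratio to the gene's mean over the libraries was -0.614 in library 1, 0.232 in library 2 and -0.38 in library 3. Over all tested genes the corresponding values were -0.374, -0.0981 and -0.271. Values of like size and opposite sign were seen in other groups. Over the 25 genes rho ran there from -0.125 (female floxed library 1) to 0.628 (male floxed library 4), with 0.503 in male knockout library 3. Over all tested genes it was -0.0947, 0.367 and 0.328 in these libraries. With a trend on GC content and length removed, the female log2 fold changes of Irf1, Stat2 and Tap1 were -0.55, -0.68 and -0.79, against -0.81, -0.89 and -1.10. Without these 2 libraries the median log2 fold change of the 25 genes in females was -0.05, against 0.12 with them. The cause of the shift in these 2 libraries was not tested.

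**Figure D5:**
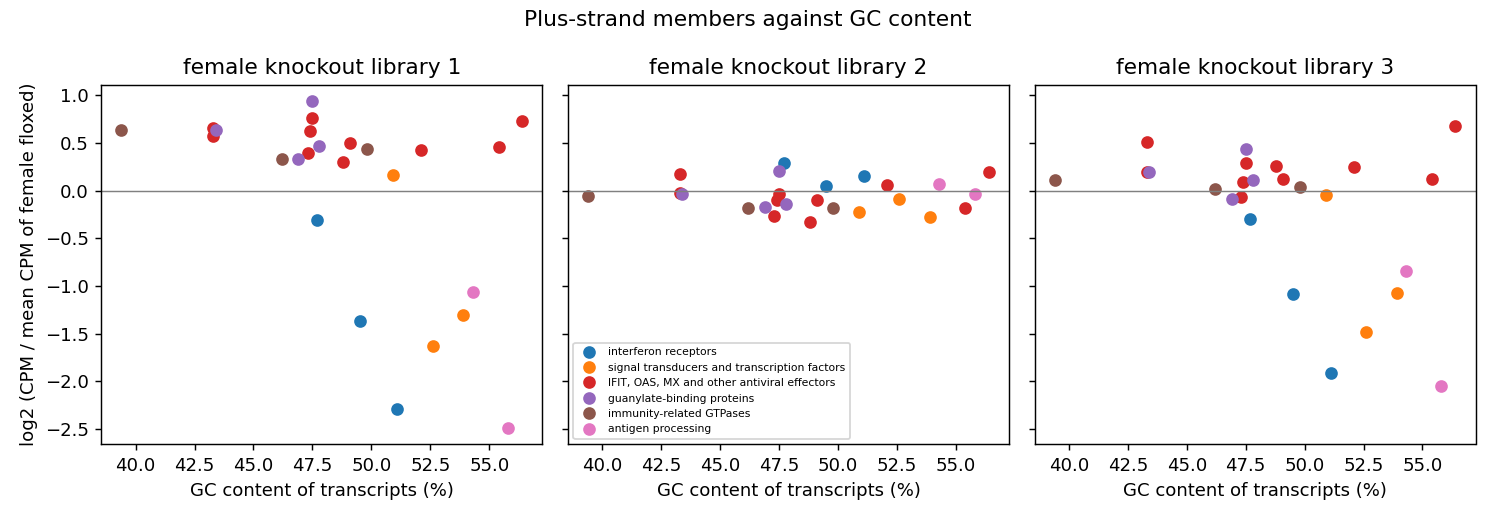
Log2 ratio of CPM in each female knockout library to the mean of the female floxed libraries, against the GC content of the gene's transcripts in percent, for the 25 plus-strand genes coloured by role. In libraries 1 and 3 the genes that lie far below 0 have a GC content of about 50% and more. Several effectors of like GC content lie above 0 there. In library 2 all genes lie near 0.

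The 12 minus-strand genes were at a mean of 0.126 (Ifih1) to 5.37 CPM per kb (Samhd1), below all 25 plus-strand genes, which ran from 16.8 (Oasl2) to 438 CPM per kb (Ifngr1). By edgeR 0 of the 12 passed the test in any comparison, and the counts at an unadjusted p under 0.05 were 1 over both sexes, 1 in males and 2 in females, beside 20.2, 8.12 and 19.2% of all tested genes. DESeq2 called 0 in each of these, beside 9.1, 1.89 and 5.69% of all tested genes, and limma-voom with quality weights called 1, 0 and 4, beside 37.3, 1.43 and 43.8%. These shares cover both strands, and 9473 of the 12411 tested genes lie on the better counted plus strand. Among the nucleic acid sensors, Ifih1 was lower without overlap in female knockouts, as were 9.7% of all tested genes, with counts of 6 to 26 in a library, and Ddx58 and Zbp1 overlapped between genotypes in both sexes. Oas1a was higher without overlap in female knockouts, at 5.08 to 9.84 against 3.18 to 5.07 CPM, as were 15.3% of all tested genes. Its female log2 fold change was 1.0 (SE 0.36, adjusted p 0.203 by edgeR), and 57.6% of its 50-base words occur in other genes. Gbp9 was lower without overlap in male knockouts, at 7.98 to 8.43 against 8.62 to 13.8 CPM, as were 6.13% of all tested genes. Its male log2 fold change was -0.51 (SE 0.23, adjusted p 0.596 by edgeR). The 11 genes under 1 CPM had at most 25 reads in a library and did not pass the filter on low counts.

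The other genes of the pathway were described by a separate list of 92, of which 88 were in the table and 56 had enough reads for the test. By edgeR 0 of the 56 passed in a comparison of genotypes. At an unadjusted p under 0.05 over both sexes there were 12 of 36 plus-strand genes, 8 higher and 4 lower, and 4 of 20 minus-strand genes, 1 higher and 3 lower, beside 20.2% of all tested genes. DESeq2 called 6 and 1 of them, beside 9.1% of all tested genes, and limma-voom 17 and 5, beside 37.3%. Within a sex the plus-strand genes with such a p numbered 3 in males and 11 in females, beside 8.12 and 19.2% of all tested genes. DESeq2 called 0 and 4 of the 36 there, beside 1.89 and 5.69%. Those with the smallest p were named after their values were seen. Ly6e had a log2 fold change of 0.33 (SE 0.08, adjusted p 0.0502 by edgeR), the DNA sensor Aim2 0.55 (SE 0.13, adjusted p 0.0519), the MHC class I light chain B2m 0.39 (SE 0.10, adjusted p 0.0656), and Cd274, which encodes PD-L1, 0.32 (SE 0.09, adjusted p 0.0733). Without female knockout libraries 1 and 3 the 4 values were 0.20, 0.46, 0.30 and 0.20.

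Among the ligands, interferon gamma (Ifng) was at 0.551 to 2.60 CPM, from 9 to 60 reads in a library. Its log2 fold change over both sexes was 0.98 (SE 0.28, adjusted p 0.0882 by edgeR), and 0.78 without female knockout libraries 1 and 3. Of the other plus-strand ligand genes, Ifna1 and Ifnl3 had 0 reads in all 12 libraries, Ifna4 and Ifna5 had 1 read each in all and Ifnk 8. Minus-strand Ifnb1, Ifna2, Ifne and Ifnl2 also had 0 reads, on the strand that is poorly counted here.

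Cells other than Treg cells also express interferon genes, so their markers were read in each library. The summed level of 12 macrophage markers ran from 94.0 to 1349 CPM in male floxed, 219 to 1439 in male knockout, 253 to 1071 in female floxed and 776 to 1505 in female knockout libraries. That of 6 plasmacytoid dendritic cell markers, which include the interferon gene Bst2, ran from 261 to 300, 185 to 294, 299 to 337 and 303 to 495 CPM in the same order. In females it was highest in knockout libraries 3 (495) and 1 (382). Of these 6 markers, 4 had enough reads for the test, and whether the sum follows the number of such cells was not tested. No macrophage or plasmacytoid dendritic cell marker was at 0 in all libraries, and for NK-like cells Klrb1c was. The sum over 6 NK-like markers was higher without overlap in the knockouts of both sexes, at 195 to 213 against 160 to 188 CPM in males and 197 to 285 against 158 to 175 CPM in females. Of the 6 markers, 2 had enough reads for the test. Gbp3 also was higher without overlap in the knockouts of both sexes, as were 3.97% of all tested genes. In female knockout libraries 1, 2 and 3 the sum was 285, 197 and 212 CPM and Gbp3 450, 270 and 319 CPM, the same order. Within each of the other groups the 2 orders differed. A part of such cells in the Gbp3 result was not tested. The macrophage sum did not separate the genotypes in males, where male floxed library 4 and male knockout library 2 were high. Without these 2 libraries Gbp3 over both sexes was at 0.67 with an adjusted p of 0.0582 by edgeR.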

How the data were processed

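The authors deposited raw read counts per gene symbol, made from SMARTer Stranded libraries with CASAVA, STAR 2.5.2b and 2.3.0e, HTSeq 0.6.1p1 and build mm9, per the submitters' processing notes; the strand setting and the role of each STAR version are not given in the sources used here. The 5 HTSeq summary entries, of which reads outside features made up 44.3 to 46.9% and reads with no unique alignment 14.1 to 17.3% of a library, stayed out of library sizes and tests.

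Counts were scaled by TMM and tested with edgeR 4.0.16 (quasi-likelihood, robust, filterByExpr, 4 group means over 12 libraries) in R 4.3.3. P-values were adjusted by Benjamini-Hochberg over all 12411 tested genes, with a threshold of 0.05. CPM use TMM-scaled library sizes. Strand, GC content and exonic length came from GENCODE M21, matched by symbol for 54510 of 55453 genes. Replicates differed beyond counting noise.

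The members and lists were chosen with earlier results of these data known. Values in every library are given for the 6 plus-strand genes with the smallest p over both sexes and for the highest mean CPM of each role. Alternatives were RLE, DESeq2 1.42.0, limma 3.58.1 voom, other filters, a replicate block, plus-strand genes alone, a GC and length trend removed, 1 sex alone, and libraries left out. Other cell types' markers were summed as CPM.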

Additional observations from a re-analysis of the deposited data

How the results depend on the processing

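The number of kept genes called over both sexes was 1 (Gbp3). It was 2 with DESeq2 (Gbp3 and Irf1), which called 9.1% of all tested genes, 8 with limma-voom and quality weights, which called 37.3%, 0 with a GC and length trend removed, 0 without female knockout libraries 1 and 3, 0 without both male floxed 4 and male knockout 2, and 0 to 8 when 1 library was left out. The 8 came without female knockout library 2, where 22.6% of all tested genes were called. In females the count of 0 became 1 with DESeq2 (5.69% of all tested genes), 15 with limma-voom (43.8%) and 0 to 13 with 1 library left out. For the difference between the sexes it became 9 with limma-voom (8.38%) and 0 to 9 with 1 library left out, and the 13 and the 9 also came without female knockout library 2, where 23.7 and 8.5% of all tested genes were called. Without that library edgeR called 2940 of all tested genes over both sexes, against 411 with it. In males, and between floxed females and males, the count was 0 in every alternative run. The cause was not tested.

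With the replicate number as a block the count over both sexes was 0, and the adjusted p of Gbp3 was 0.0665 (log2 fold change 0.63). Correlations of same-numbered libraries were 0.442 and -0.614 in males and 0.189, 0.279 and -0.225 in females, so the numbers were not taken to pair the libraries. Calls over all genes fell from 411 to 209 with the block, and not every female library correlated best with its own number.

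Among the genes with values in every library, these signs turned, and the cause was not tested. With the GC and length trend removed, Ifi27 in males was -0.02, Irf9 was 0.02 over both sexes and 0.20 in females, and Ifi47 over both sexes was -0.07. Without female knockout libraries 1 and 3, Gbp7 in females was -0.03, Oasl2 in females -0.32, Ifngr1 in females 0.29, and Ifi47 -0.10 over both sexes and -0.17 in females. Ifi47 in males was 0.02 without both male floxed 4 and male knockout 2. With 1 library left out, 6 values also crossed 0: Oasl2 in females ran from -0.02 to 0.29, Ifngr1 in females from -0.30 to 0.02, Irf9 in females from -0.15 to 0.06, and Ifi47 from -0.08 to 0.05 in males, -0.09 to 0.19 in females and -0.06 to 0.09 over both sexes. The corresponding ranges were 0.46 to 0.67 for Gbp3 and -0.69 to -0.43 for Irf1 over both sexes, and -1.55 to -0.63 for Stat2 and -2.24 to -0.72 for Tap1 in females. The 11 listed genes under 1 CPM did not pass the filter on low counts.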
